A study of Drosophila melanogaster with 2 samples.

Results

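The 8 homeotic (Hox) genes of Drosophila melanogaster, lab, pb, Dfd, Scr, Antp, Ubx, abd-A and Abd-B, were examined for binding of the CG14014 product. They were found by symbol in the Ensembl release 115 annotation, as 8 of 13968 protein-coding genes. All 8 lie on chromosome arm 3R, 5 in the Antennapedia complex and 3 in the bithorax complex. Each gene was taken with 10 kb to each side, and every peak whose summit fell in one of these windows was collected. This gave 9 of the 3216 peaks of the conservative list, 14 of 5675 of the optimal list, 12 of 4617 of the list of replicate 1 and 6 of 2737 of the list of replicate 2.

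The peaks came from chromatin immunoprecipitation with sequencing (ChIP-seq), in which DNA bound by a protein is recovered with an antibody and sequenced. Whole embryos aged 0 to 24 h of a transgenic strain carried CG14014 fused to enhanced GFP, and an antibody to GFP was used. Chromatin was sheared by sonication to between 200 and 800 bp, in 2 biological replicates of 1 group, so there were no conditions to compare. The control experiment that the labels name as possible was not used here, no file gave read counts, and the depth of each replicate is unknown. An embryo collection of this breadth mixes stages and all cell types, so cells with and without activity of a given Hox gene could not be told apart.

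Hox genes encode homeodomain transcription factors that give the body segments their identities. In the fly they lie in a pair of clusters, and their order along the chromosome follows the order of the body regions they specify from head to tail. Gap and pair-rule proteins set their domains in the early embryo, and Polycomb and trithorax group proteins, acting through elements spread over introns and intergenic DNA, keep them off or on afterwards.

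Conservative summits lay in the windows of 4 of the 8 genes, Antp, Ubx, abd-A and Abd-B, and in none of the windows of lab, pb, Dfd and Scr. Among all protein-coding genes 53.0% had a conservative summit in such a window, and 62.9% of the 1985 genes of at least 10 kb, a length that all 8 Hox genes reach. The optimal list and replicate 1 had a summit in the windows of 5 of the 8 (67.8% and 61.6% of all genes), Scr being the added gene, and replicate 2 in those of 4 (49.1%). All 4 counts were near the background. None of the 8 had a conservative summit within 500 bp of a start site of its own, where the background was 14.6%, and 20.1% of the genes of at least 10 kb. The same was true of the optimal list (21.9% of all genes), of replicate 1 (18.6%) and of replicate 2 (13.2%). With 8 genes, a count of 0 is not far from these shares and is not read as a result. The 9 conservative summits lay in introns of Antp and Abd-B and in DNA flanking Ubx and abd-A, and the other lists added summits in a Ubx intron and in DNA flanking Scr.

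The 9 conservative summits are shown as 101 bp of the RefSeq release 6 (dm6) reference, plus strand, centred on the summit, because the rest of the account turns on them. Capitals mark matches on either strand to 6 words: TAATTA (the core that many homeodomains bind), TGATNNAT (a Hox-Exd type site), GAGAG (GAGA factor), GCCAT (the core bound by Pho), TATCGATA (Dref) and TTAAAA, an A/T-rich word. Overlapping matches are capitalised as 1 run. The sequences stand in genome order.
Antp, 3R:6912489-6912589: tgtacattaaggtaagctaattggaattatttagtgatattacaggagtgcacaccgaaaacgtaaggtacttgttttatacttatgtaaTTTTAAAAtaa
Antp, 3R:6914474-6914574: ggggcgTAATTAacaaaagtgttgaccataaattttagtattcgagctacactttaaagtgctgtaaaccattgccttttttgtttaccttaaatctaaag
Antp, 3R:6920110-6920210: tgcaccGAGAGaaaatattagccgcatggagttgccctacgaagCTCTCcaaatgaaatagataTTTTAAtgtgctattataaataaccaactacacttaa
Antp, 3R:6936284-6936384: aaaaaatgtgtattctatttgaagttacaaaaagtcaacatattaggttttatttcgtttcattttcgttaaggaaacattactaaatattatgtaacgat
Ubx window, 3R:16647112-16647212: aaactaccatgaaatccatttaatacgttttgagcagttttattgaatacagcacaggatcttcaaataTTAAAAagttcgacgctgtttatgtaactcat
abd-A window, 3R:16798806-16798906: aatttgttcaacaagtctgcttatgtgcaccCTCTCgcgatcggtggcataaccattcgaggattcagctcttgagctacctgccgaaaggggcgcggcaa
abd-A window, 3R:16837915-16838015: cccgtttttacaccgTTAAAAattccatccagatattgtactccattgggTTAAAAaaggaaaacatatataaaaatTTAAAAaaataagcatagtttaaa
Abd-B, 3R:16958370-16958470: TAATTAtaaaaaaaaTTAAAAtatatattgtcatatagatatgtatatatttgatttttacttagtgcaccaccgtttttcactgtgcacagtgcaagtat
Abd-B, 3R:16970010-16970110: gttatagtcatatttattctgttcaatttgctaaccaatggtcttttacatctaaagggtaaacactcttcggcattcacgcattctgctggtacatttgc

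TAATTA occurred in 2 of the 9 windows (22.2%), at the second Antp summit and at the first Abd-B summit, against 10.2% of all conservative summits. In both it sat near the left edge of the window and not at the summit. TTAAAA occurred in 5 of 9 (55.6%, against 34.9%), and the second abd-A window held 3 copies. GAGAG occurred in 2 of 9 against 8.30%, with a copy on each strand at the third Antp summit. TGATNNAT, GCCAT and TATCGATA were in none of the 9, against 7.59%, 13.8% and 1.65% of all conservative summits. With 9 windows, the 95% Wilson interval of the TAATTA share ran from 6.32% to 54.7% and covered counting error only. A match is a description of the letters and not a binding site.

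**Figure D1:**
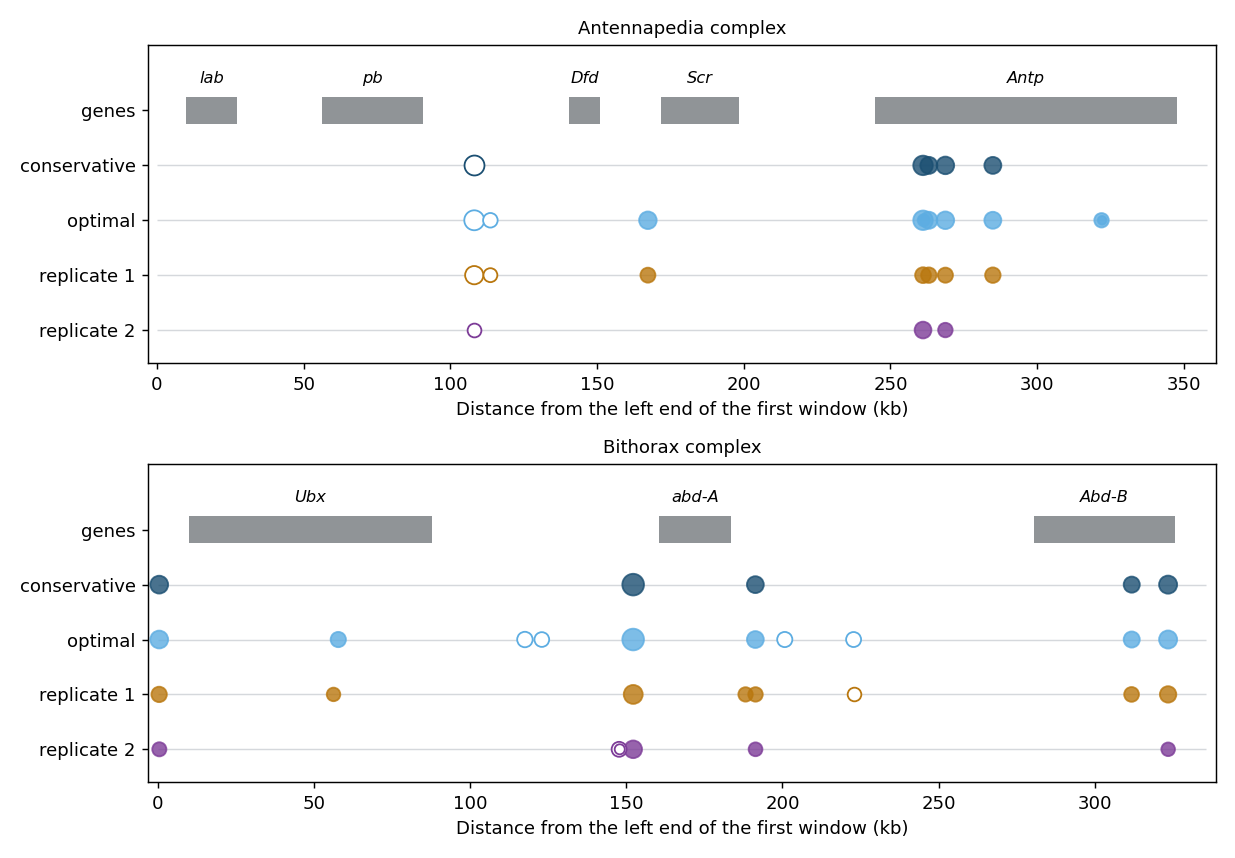
Summits along the Antennapedia complex (upper panel) and the bithorax complex (lower panel), by distance in kb from the left end of the first window. Grey bars are gene bodies, each row is 1 of the 4 thresholded lists, filled points are summits in a Hox window, open points are summits between windows, and point area grows with the square root of the authors' signal. The row of the conservative list shows 4 filled points in Antp and 5 in the lower panel, and no filled point from lab to Scr.

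The first 4 genes of the Antennapedia complex held no conservative summit. lab (FBgn0002522, 3R:6661427-6678590, minus strand), which acts in the intercalary head segment and the midgut, was 80986 bp from the nearest one. pb (FBgn0051481, 3R:6707800-6742063, minus strand), which specifies adult mouthparts, was 17513 bp away. Dfd (FBgn0000439, 3R:6791836-6802428, plus strand), which specifies the mandibular and maxillary segments, was 32260 bp away. Scr (FBgn0003339, 3R:6823120-6849981, minus strand), which acts in the labial and first thoracic segments and in the salivary gland, was 62558 bp away. The nearest conservative summit to lab, to pb and to Dfd was the same one. It lay between pb and Dfd, 110 bp upstream of bcd, the gene of the anterior morphogen Bicoid. Its signal was 183.46, with rank 933 of 3216.

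For lab, pb and Dfd the optimal list and both replicate lists were empty too. Weaker peaks were ranked there but did not reach the authors' threshold, a global irreproducible discovery rate (IDR) of 0.01. This rate estimates how many of the peaks ranked at least as high fail to repeat, as a share. The best peak of the lab window in the ranking of the true replicates had a signal of 50.264 and a global IDR of 0.0831. Its summit lay 50 bp from a start site of agt, a neighbouring DNA repair gene. The best of the pb window had a signal of 38.597 and an IDR of 0.208, its summit being 51 bp before the pb start site. In replicate 1 alone the pb start site had a ranked peak 139 bp upstream with a signal of 29.056 and an IDR of 0.0418. The best of the Dfd window had a signal of 35.636 and an IDR of 0.749. These values describe peaks below the threshold and give no binding calls.

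Scr had a single thresholded locus, 4366 bp beyond its 3′ end, at 3R:6818589-6818918. It was in the optimal list with a signal of 111.09 and rank 2031 of 5675. Replicate 1 had it with a signal of 58.881 and a global IDR of 0.000918, whereas the ranking of replicate 2 and that of the true replicates had no peak overlapping it. Of the rankings of single replicates, only that of replicate 1 thus held the locus. In the ranking of the pooled reads its global IDR was 9.43e-05. How much the reads of each replicate gave to that signal is unknown. It lay in intergenic DNA 1140 bp from the gene tRNA:Lys-TTT-2-1 and 29751 bp from the nearer Scr start site, and its 101 bp held none of the 6 words.
Scr window, 3R:6818704-6818804: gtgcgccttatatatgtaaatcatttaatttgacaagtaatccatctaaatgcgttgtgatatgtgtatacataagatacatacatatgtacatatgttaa

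Antp (FBgn0260642, 3R:6896253-6999228, minus strand) specifies thoracic segments and directs leg in place of antenna. It is the longest of the 8 genes at 102976 bp, with 3 start sites, and carried 4 conservative summits, all inside the gene. With Abd-B, it was 1 of 2 Hox genes with a summit in the gene body, which 9.55% of all protein-coding genes and 35.0% of those of at least 10 kb had. Of the latter, 3.73% had 4 or more. Of the 157 genes of at least 75 kb, 10.8% had 4 or more. These length classes were set after the Antp count was known, so the shares describe and do not test it.

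The 4 Antp summits lay in introns, and also in introns of CG46458, a gene annotated over the same DNA. The leftmost peak, 3R:6912456-6912543, was 88 bp wide and had a signal of 169.11 (rank 1058 of 3216). In the rankings of replicates 1 and 2 it had signals of 72.782 and 92.548, and it was in both thresholded lists. The next, 3R:6914359-6914688, was 1985 bp to the right and had a signal of 98.854 (rank 2191). Replicate 1 gave it 66.698 and replicate 2 gave it 29.493, and in replicate 2 its global IDR was 0.18, so it was not in that list.

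The third, 3R:6919995-6920324, had a signal of 112.03 (rank 1902) and was in both replicate lists, with 60.988 and 51.708. These 3 lay 20301, 18316 and 12680 bp downstream of the start site at 6932840, in DNA that all 12 annotated Antp transcripts span. The fourth, 3R:6936169-6936498, had a signal of 96.97 (rank 2252). Its summit was 3494 bp upstream of that start site, in DNA that 6 of the 12 transcripts span. It had 67.071 in replicate 1 and 25.181 in replicate 2, where its IDR was 0.84. Thus 2 of the 4 Antp peaks passed in each replicate alone and the other 2 in replicate 1 only.

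The optimal list added 3 Antp summits. One, at 6973387 (signal 50.853), was 15017 bp upstream of the start site at 6958370, and neither replicate list held it. Its companion at 6973588 had a signal of 6.5, and a summit at 6912755, 216 bp from the strongest Antp summit, had a signal of 23.9.

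Ubx (FBgn0003944, 3R:16656623-16734426, minus strand) specifies the posterior thorax and anterior abdomen and turns wing into haltere. No conservative summit lay in its 77804 bp body. Of genes of at least 75 kb, a class set after the Antp count was known, 51.6% had one. With a share of this size, the lack at a single gene is not read as a result. The conservative summit of its window was at the far edge, 9461 bp beyond the 3′ end of Ubx and 87264 bp from the Ubx start site. It lay 158 bp upstream of CG10324 and within 500 bp of a start site of CCT3, a chaperonin subunit gene, and was the only one of the 9 at any promoter. The peak, 3R:16646997-16647326, had a signal of 118.14 (rank 1757), with 66.029 in replicate 1 and 46.543 in replicate 2, and passed in both. Without summits at promoters of other genes, a setting chosen after the data were seen, 8 summits at 3 Hox genes were left.

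Inside Ubx, other lists held weaker peaks in an intron that all 6 Ubx transcripts span. The optimal list had a summit at 16704477 with a signal of 63.838, 29949 bp downstream of the start site. In the ranking of the true replicates its global IDR was 0.0142, just over the threshold, and its signals in replicates 1 and 2 were 33.254 and 31.132. Replicate 1 had a summit at 16702951 with a signal of 39.347, for which replicate 2 had no ranked peak.
Ubx intron, 3R:16704427-16704527: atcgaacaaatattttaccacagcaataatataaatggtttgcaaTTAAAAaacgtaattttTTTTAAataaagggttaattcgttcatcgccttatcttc

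abd-A (FBgn0000014, 3R:16807214-16830049, minus strand) specifies the middle abdominal segments. It had 2 conservative summits in its window, both outside the gene and 39109 bp apart, on opposite sides of it. The left one, 3R:16798752-16798960, was the strongest Hox peak, with a signal of 258.58 and rank 557 of 3216. It also had the highest signal of the Hox loci in each replicate, 150.22 in replicate 1 and 113.46 in replicate 2. Its global IDR was 1e-05 in both. The first Antp locus had the same value in replicate 2 and no Hox locus a lower one, so 1e-05 may be a limit of the score. The left abd-A peak lay 8358 bp beyond the 3′ end of abd-A and 1744 bp from lncRNA:CR45750. The nearest start site of a protein-coding gene, that of the glucose transporter gene Glut3, was 10545 bp away.

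The right abd-A peak, 3R:16837800-16838129, had a signal of 94.741 (rank 2313) and passed in both replicates, with 51.314 and 42.482. It lay 7916 bp upstream of abd-A, in an intron of lncRNA:iab8, a long noncoding RNA transcribed across the regulatory DNA between abd-A and Abd-B, and of MSAmiP. Replicate 1 alone had a further summit at 16834826, 4777 bp upstream of abd-A, with a signal of 50.104. Its global IDR was 0.0106 in the ranking of the true replicates and 0.845 in that of replicate 2.

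Abd-B (FBgn0000015, 3R:16927212-16972236, minus strand) specifies the posterior abdomen and the genital segments and has 6 start sites over which its short and long forms begin. Both of its conservative summits lay in introns. The peak 3R:16969895-16970224 had a signal of 124.89 (rank 1657) and passed in both replicates, with 84.941 and 40.194. Its summit lay between the start sites at 16968574 and 16972236, 1486 bp upstream of the former, the smallest distance between a conservative summit and a Hox start site. A single one of the 10 Abd-B transcripts spans it. The peak 3R:16958255-16958584 had the lowest signal of the 9, 78.626 (rank 2802), and lay 1861 bp downstream of the start site at 16960281. It had 55.879 in replicate 1 and 27.729 in replicate 2, where its IDR was 0.854, so it was in the list of replicate 1 only.

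**Figure D2:**
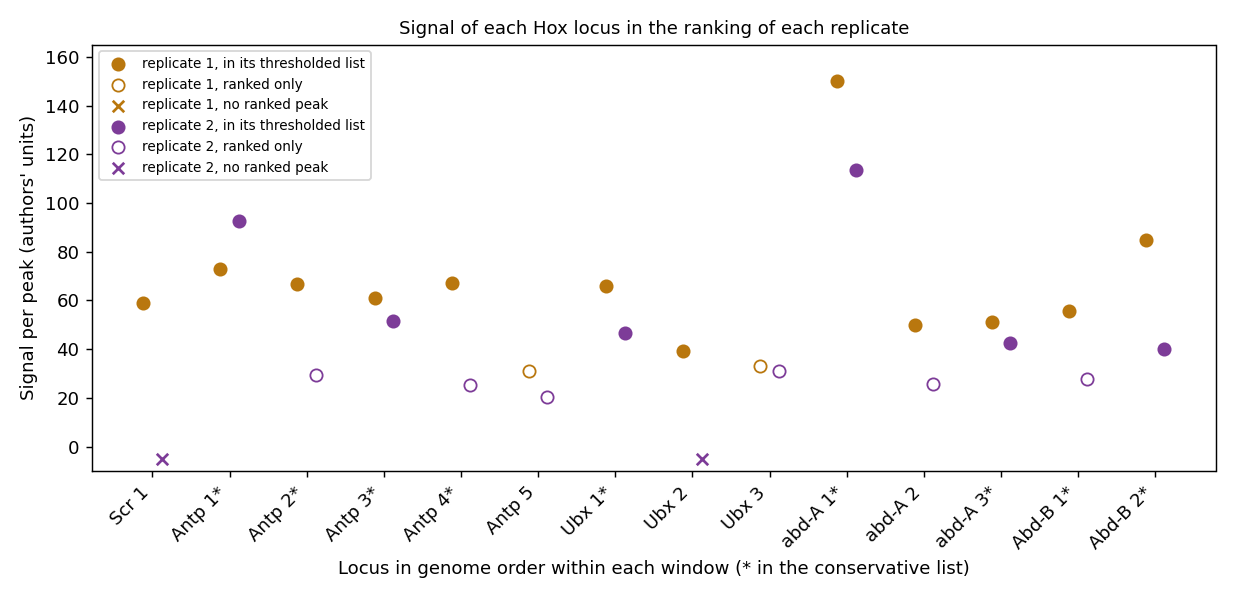
Signal of each of the 14 Hox loci (vertical axis, authors' units) in the ranking of replicate 1 and of replicate 2, with loci in genome order within each window. Filled points passed the threshold in that replicate, open points were ranked only, crosses under 0 mark loci without a ranked peak, and asterisks mark loci of the conservative list. The first abd-A locus is highest in both replicates, at 150.22 and 113.46, and the Scr locus has no point in replicate 2.

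All 9 conservative peaks overlapped a peak of the replicate 1 list and 6 of the 9 (66.7%) one of the replicate 2 list. Over all conservative peaks these shares were 87.2% and 72.9%. The 3 peaks absent from the list of replicate 2, at Antp (2) and Abd-B (1), were ranked there with global IDRs from 0.18 to 0.854. Where both replicates had a ranked peak, their own summits were 0 to 74 bp apart at the 9 peaks, with a median of 19 bp against 22 bp over the 3177 conservative peaks with a ranked peak in each. Replicate peaks were matched by overlap with the conservative peak, 330 bp wide in 7 of the 9, so small distances are in large part set by the matching.

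**Figure D3:**
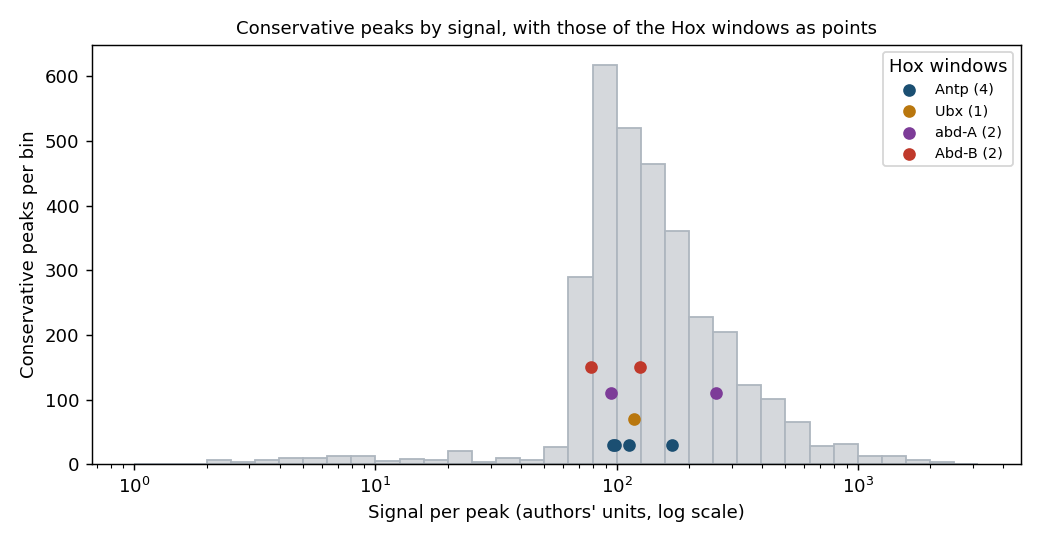
Number of conservative peaks by signal (horizontal axis, authors' units, log scale), with the 9 Hox peaks as points coloured by gene and spread vertically for legibility only. The Hox points span 78.6 to 258.6, within the main body of the distribution.

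The signals of the 9 peaks ran from 78.6 to 258.6 with a median of 112, against a median of 128 and quartiles of 91.1 and 202 for the whole conservative list. Only the left abd-A peak was above the upper quartile, and only the weaker Abd-B peak was below the lower one. The signal is the authors' value per peak, on a scale that neither the labels nor the files state.

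The 9 Hox summits lay farther from start sites than the list as a whole, which is a description and was not tested. Of the 9 summits 7 were in introns, 2 were intergenic and none was in an exon, by gene feature alone. The same classes were not counted over all conservative summits, so no contrast is drawn from them. Within 500 bp of a start site of any protein-coding gene were 1 of 9 (11.1%), against 48.8% of all conservative summits. The median distance to the nearest such start site was 7916 bp, against 540.5 bp for the list. More than 10 kb from any such start site were 4 of 9 (44.4%), against 8.36%. These shares were not corrected for the length of the genes or of the DNA between them.

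**Figure D4:**
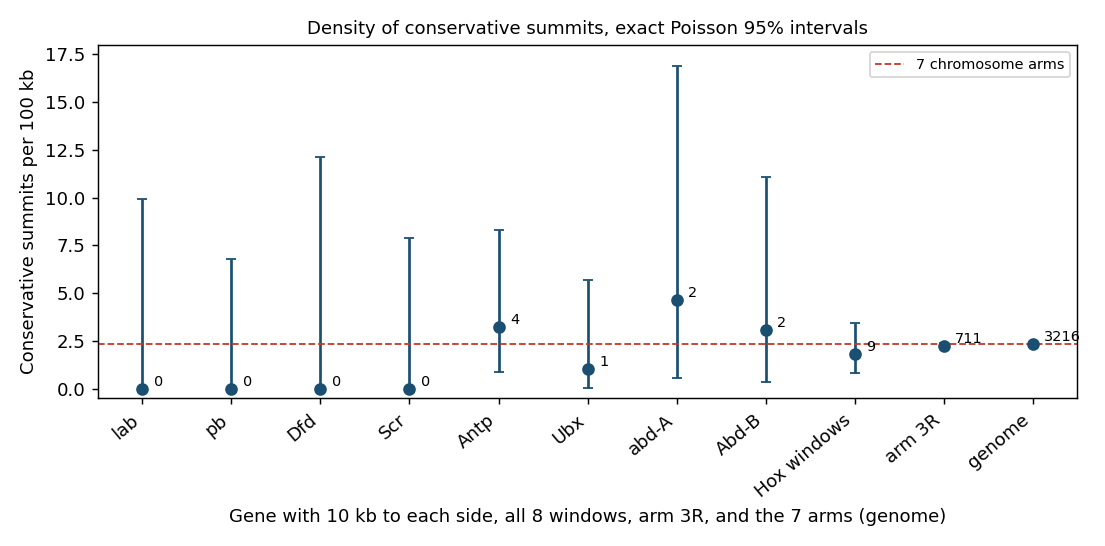
Conservative summits per 100 kb in each Hox window, in all 8 windows together, on arm 3R and over the 7 chromosome arms (dashed line), with exact Poisson 95% intervals, and the number of summits printed beside each point. The interval of every window, those without a summit included, and that of all windows together, spans the dashed line at 2.34.

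Per length, the 8 windows together held 1.81 conservative summits per 100 kb (exact Poisson 95% interval 0.827 to 3.43, 9 summits in 497.5 kb). Arm 3R held 2.22 and the 7 chromosome arms 2.34, so the Hox density was not distinguishable from either at this number of peaks. By gene the density was 3.25 at Antp, 1.02 at Ubx, 4.67 at abd-A and 3.08 at Abd-B, each from 4 summits or fewer. The windows from lab to Scr, 168.9 kb in all, held 0 (interval 0 to 2.18 per 100 kb, below the densities of arm 3R and of the 7 arms). That block was put together after its counts were seen, so its interval is a description and no test. In the optimal list the Hox windows held 2.81 per 100 kb (interval 1.54 to 4.72) against 4.13 over the arms. Replicate 1 gave 2.41 (1.25 to 4.21) against 3.36, and replicate 2 gave 1.21 (0.443 to 2.62) against 1.98. Each interval covered the value over the arms, and the lists are not independent of each other. Hox gene bodies alone held 1.78 conservative summits per 100 kb, against 1.95 for the bodies of genes of at least 10 kb. With 10 kb to each side, genes of at least 10 kb held 2.53 and all protein-coding genes 2.63. Both values lie within the interval of the Hox windows in the conservative list, 0.827 to 3.43. The intervals cover counting error only, and peaks are not replicates.

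Below the threshold, start sites of Hox genes were not empty. In the ranking of the true replicates 6 of the 8 genes, and 10 of 19 start sites, had a summit within 500 bp. This was near the share of all protein-coding genes, 69.3%. The highest of these signals was the 38.597 at pb, followed by 28.745 at 104 bp upstream of lab. Their global IDRs were 0.208 and 0.47, far over the threshold, so they give no binding calls. Dfd and Scr had none at a start site in any of the 4 rankings.

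**Figure D5:**
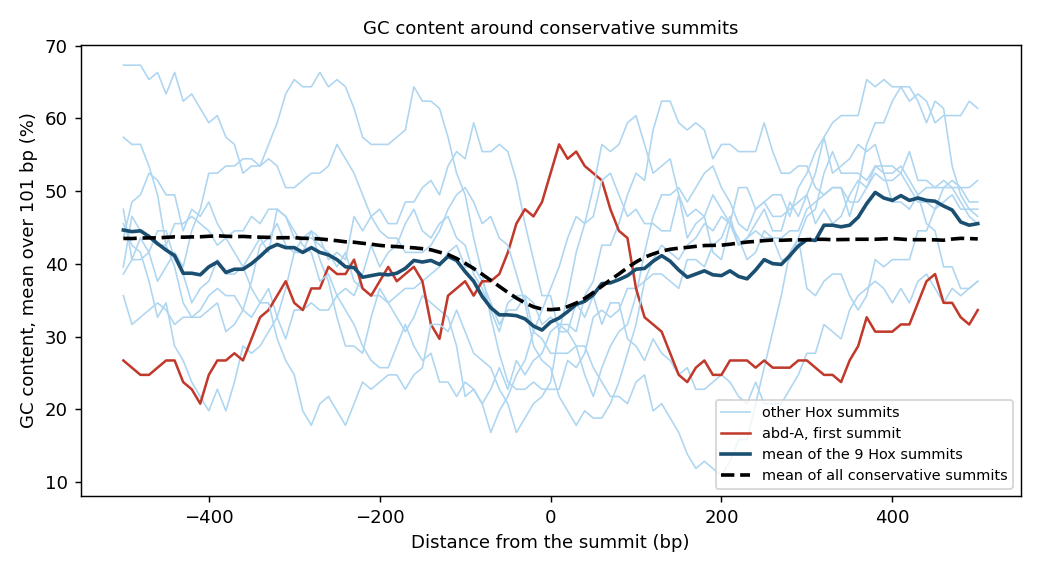
GC content in percent, averaged over 101 bp, against distance in bp from the summit. Thin lines are the 9 Hox summits, with the left abd-A summit in red, the thick solid line is their mean and the dashed line the mean of all 3216 conservative summits. Both means dip at the summit, to 32.0% and 33.7%, while the red line rises there.

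The base composition of the Hox summits was close to that of the list. The 101 bp at the summit had a mean GC content of 32.0% ± 9.13 (SD over 9 summits), against 33.7% ± 9.64 over all 3216. At 300 bp to the right the 9 had 43.3% ± 10.3, and at 300 bp to the left 42.2% ± 11.4. The left abd-A summit went the other way, with 52.5% at the summit against 34.7% and 26.7% at 300 bp to the left and right. Of all conservative summits, 95.6% had a GC content at or below it. The fourth Antp summit was the lowest of the 9, with 22.8% at the summit and 65.3% at 300 bp to the left.

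Genes around the Hox genes gave the following. Of the other genes of the Antennapedia complex, the 5 listed here (zen, zen2, bcd, ftz and Ama) had 1 conservative peak between them, that at bcd, which also fell within 10 kb of zen and Ama. Of 7 Hox cofactor genes, hth and ftz-f1 had conservative summits in their windows, 3 each, and exd, tsh, tio, disco and disco-r had none. Those with summits are also the longest of the 7, hth at 132008 bp and ftz-f1 at 50703 bp, and the counts were not corrected for length. The best at hth, whose product helps bring Exd into the nucleus, had a signal of 272.45 and lay in the gene 16513 bp from a start site. The best at ftz-f1, which encodes the partner of Ftz, had 136.96.

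Of 9 genes that Hox proteins regulate directly, Dll, dpp and bs had conservative summits in their windows, and wg, rpr, salm, salr, ems and Con had none. The Dll promoter, a gene of limb formation that abdominal Hox proteins repress, had a signal of 486.7 at 106 bp upstream of the start site. The best at dpp, a signalling ligand under Ubx and abd-A control in the midgut, had 164.52. Of 9 regulators that set Hox domains only cad had one within 10 kb, and it lay 215 bp from the start site of Pomp. Against the background of 53.0%, the cofactors, targets and regulators had 2 of 7, 3 of 9 and 1 of 9 genes with a summit in the window. The listed genes of the Antennapedia complex had 3 of 5, all through the 1 peak at bcd.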

How the data were processed

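The authors deposited peak lists on dm6, per the labels. Each replicate had a ranked and a thresholded list, and the conservative and optimal lists combined both, through rankings of the true replicates and of the pooled reads. The authors set a signal per peak, and the deposited rankings also gave the −log10 of the global IDR. No source used here names the aligner or the caller of the peaks, and depth is unknown.

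The Hox genes, the other gene lists and the words were chosen with earlier results of these data known. All 8 Hox genes were described with every thresholded summit in their windows. Other genes named were those at a summit, the nearest protein-coding start site, and list members with a conservative summit. A summit was assigned to a gene by Ensembl release 115 coordinates, with transposable elements left out, and replicates were matched by at least 1 bp of overlap, taking the highest signal. No test was run, since the labels give 1 group. Alternatives were the list, each replicate alone, the IDR threshold, merged peaks, window, promoter and word ranges, and leaving out other genes' promoters. Functions were tested on simulated data. Software was Python 3.11.15 with scipy 1.17.1, pandas 2.3.3, numpy 2.4.6 and matplotlib 3.10.9.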

Additional observations from a re-analysis of the deposited data

How the results depend on the processing

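Of 11 alternatives for the number of conservative summits in the Hox windows, 9 stayed within 1.5 times the main count of 9. The optimal list gave 14 summits (2.814 per 100 kb), and a global IDR of 0.001 in place of 0.01 gave 5 (1.005 per 100 kb). Each replicate alone gave between 6 and 12 summits, at between 4 and 5 genes and between 1.206 and 2.412 per 100 kb. An IDR of 0.05 gave 13 summits at the same number of genes, 4. The number of Hox genes with a summit was 2 without flanks and 2 with flanks of 5 kb, since the peaks of Ubx and abd-A lie more than 5 kb from the genes. No alternative put a conservative summit at a Hox start site, in 8 settings. With 25 bp to each side of the summit, the share of summits with TAATTA was 0% in place of 22.2%. No paired analysis was possible because there is 1 group. The 9 peaks and the unknown depth limit what can be said of any single gene.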

Other observations

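Between the Hox windows, the bithorax complex held summits of the optimal list in lncRNA:bxd and lncRNA:iab8. The other noncoding genes of the complex held none. Over its span the complex had 2.85 optimal summits per 100 kb, against 4.13 over the arms. Inside lncRNA:bxd, the noncoding gene upstream of Ubx, there were summits at 16764201 (signal 66.508) and 16769615 (54.736). Beside its conservative summit, lncRNA:iab8 had optimal summits at 16847372 (61.516) and 16869405 (58.557). At 92116 bp, lncRNA:iab8 is the longest of the 11 noncoding genes of the complex, and no share over noncoding genes of like length was computed. Replicate 2 alone had a summit at 16794349 (57.604), 12865 bp from abd-A. Just outside the complex, 14416 bp beyond Abd-B, the CG18622 promoter had a signal of 681.61 (rank 83 of 3216), above every Hox peak.

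A palindromic word, GTGCAC, was seen in the printed Hox sequences and counted afterwards, so its count among them has no test. It occurred within 50 bp of 3 of the 9 Hox summits, and in 1 of 9 windows at 300 bp to the left and 1 of 9 at 300 bp to the right. Among the other 3207 conservative summits it occurred in 2.68% at the summit, against 2.49% at 300 bp to the left and 2.12% at 300 bp to the right.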
